A study of Homo sapiens with 10 samples.

Results

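Genes that carry small nucleolar RNAs (snoRNAs) in their introns but code for no protein of their own were followed between 2 fractions of HEK293 nuclei. The members are the host genes SNHG1, SNHG3, SNHG5, SNHG6, SNHG7, SNHG8, SNHG12, SNHG15 and SNHG16 and the growth arrest gene GAS5. They were taken by symbol from the annotated rows of the deposited gene table, which gave 10 genes among 54201 annotated rows. Of these 10, 8 were tested by the authors and 2 were not. Every sample came from HEK293, a human embryonic kidney cell line grown as an adherent culture. After lysis of its nuclei, 3 samples of soluble nuclear extract (SNE) and 3 of the chromatin pellet extract (CPE) were taken, and stranded total RNA was sequenced. The series also holds 2 chromatin pellet samples with DRB, an inhibitor of transcription elongation, and 2 mock-treated ones. The deposited tables analysed here have columns for SNE and CPE only.

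A snoRNA host gene yields products with different fates from a single primary transcript. The snoRNA is trimmed out of a spliced intron, is bound by a set of core proteins and works in the nucleolus, where C/D box snoRNAs guide 2'-O-methylation and H/ACA box snoRNAs guide pseudouridylation of ribosomal RNA. The joined exons leave as a spliced RNA, which for several of these genes is known to be short-lived because translating ribosomes direct it to nonsense-mediated decay. Some spliced host RNAs, GAS5 and SNHG1 among them, have also been studied as long noncoding RNAs in their own right.

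A snoRNA from each of the 5 called members, and from SNHG16, which was not called, is shown because these RNAs are the short nucleolar cargo that shares each gene's region with the spliced RNA. GENCODE release 29 (build GRCh38) places 25 annotated snoRNA or scaRNA entries, from 69 to 206 bases long, on the same strand inside 9 of the 10 genes. GAS5 is the gene without such an entry in that release. Of the 25 entries, 22 are overlapped by an exon of at least 1 annotated host transcript. The host transcripts annotated in that release run from 185 to 3607 bases. In the following sequences the capitals mark the C box (TGATGA) and the D box (CTGA) of C/D box snoRNAs and the ACA box near the 3' end of H/ACA box snoRNAs. SNORA9 lies in SNHG15 (chr7:44985378-44985510, minus strand), SNORA17A in SNHG7 (chr9:136726747-136726879, minus strand) and SNORA24 in SNHG8 (chr4:118279190-118279320, plus strand). SNORD25 lies in SNHG1 (chr11:62855564-62855632, minus strand), SNORD50B in SNHG5 (chr6:85677589-85677658, minus strand) and SNORD1B in SNHG16 (chr17:76561109-76561192, plus strand).
SNORA9: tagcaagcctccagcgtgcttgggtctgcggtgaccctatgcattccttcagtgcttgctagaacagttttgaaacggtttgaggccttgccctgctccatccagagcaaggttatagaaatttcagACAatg
SNORA17A: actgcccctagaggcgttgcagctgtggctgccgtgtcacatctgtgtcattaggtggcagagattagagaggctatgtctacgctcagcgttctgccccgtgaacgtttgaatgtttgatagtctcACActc
SNORA24: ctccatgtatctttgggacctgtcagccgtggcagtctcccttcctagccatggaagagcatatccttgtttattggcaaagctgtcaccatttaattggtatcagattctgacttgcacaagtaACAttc
SNORD25: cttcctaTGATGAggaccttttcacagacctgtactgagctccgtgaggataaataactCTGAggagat
SNORD50B: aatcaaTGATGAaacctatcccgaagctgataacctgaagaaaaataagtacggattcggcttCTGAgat
SNORD1B: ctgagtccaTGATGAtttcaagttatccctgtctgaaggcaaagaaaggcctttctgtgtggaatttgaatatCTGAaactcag
Each of the 3 H/ACA sequences ends 3 bases after its ACA box. The snoRNA symbols themselves seldom had a usable row: of 36 snoRNA symbols listed for the members, 4 had a row in their host's region and 0 of those were tested.

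Of the 8 tested members, 5 were called toward CPE in the authors' deposited table and 0 toward SNE, and the other 3 missed the threshold, a q of at most 0.05 in the authors' Cuffdiff test. At an unadjusted p under 0.05, the same test put 1 member, SNHG16, on the SNE side. The background was far from that split: 1.83% of the 18271 tested annotated loci were called higher in CPE and 39.3% higher in SNE. Levels are FPKM, fragments scaled to transcript length and library size, which the authors give once per group. No value per sample was at hand, so no SD can be stated, read depth is unknown, and each difference is judged by the authors' Cuffdiff test alone. The log2 ratio of CPE over SNE had a median of 2.70 for the 8 tested members and of -1.33 for the 11388 tested annotated loci with FPKM of at least 1 in both fractions. The authors' scaling between libraries sets the zero of these ratios.

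SNHG15, which hosts SNORA9, had the highest ratio. It stood at 168 FPKM in SNE and 1924 FPKM in CPE, an 11.4-fold difference. Its log2 ratio in the authors' deposited table was 3.52 (q = 0.000706, the smallest q there), which ranked 43 among the 11388 loci. Its row covers chromosome 7 from 45020568 to 45026560 on hg19.

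SNHG1, a multi-snoRNA host with 7 annotated snoRNA entries, was high in both fractions. It stood at 1263 FPKM in SNE and 9320.4 FPKM in CPE, and its row covers chromosome 11 from 62616168 to 62623386. The log2 ratio of SNHG1 in the authors' deposited table was 2.88 (p = 0.001, q = 0.0103). This was the weakest q among the 5 called members and the only one of them above 0.01.

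SNHG5, host of SNORD50B, had 191 FPKM in SNE and 1367 FPKM in CPE. The authors' deposited table gave it a log2 ratio of 2.84 (q = 0.000706), in a region on chromosome 6 from 86370710 to 86388451. SNHG5 ranked 576 in SNE and 52 in CPE among the tested annotated loci, and SNHG15 ranked 689 and 42.

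SNHG7 had the highest gene-level FPKM of the tested members in each fraction. Nearly all of that level sat in isoforms that were not tested, as given further below. The FPKM of SNHG7 was 2709.7 in SNE, rank 14 of 18271 tested annotated loci, and 17172 in CPE, rank 12. Its log2 ratio was 2.66 in the authors' deposited table (q = 0.000706), for a row on chromosome 9 from 139607022 to 139622636. It holds 4 annotated snoRNA entries, SNORA17A among them.

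SNHG8, the host of SNORA24, had the smallest ratio of the called members. Its FPKM rose from 432 in SNE to 2100.1 in CPE, a log2 ratio of 2.28 (q = 0.000706) in the authors' deposited table. The row lies on chromosome 4 in a region from 119199864 to 119274158 that it shares with the protease gene PRSS12.

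GAS5, a C/D box host named for its accumulation in growth-arrested cells, had a ratio as large as those of the called genes but was not called. It stood at 1313 FPKM in SNE and 8747 FPKM in CPE, and the log2 ratio of 2.74 in the authors' deposited table had p = 0.119 and q = 0.427. That region, on chromosome 1 from 173768688 to 173872751, is the longest of the tested members at 104.1 kb and holds 24 rows. The antisense gene GAS5-AS1 stood at 1.17 FPKM in SNE and 1.36 FPKM in CPE, so it was near the FPKM minimum of 1 used here.

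SNHG6 and SNHG16 differed from the rest in level or in direction. SNHG6, host of SNORD87, had 221 FPKM in SNE and 267 FPKM in CPE (log2 ratio 0.27, q = 0.844 in the authors' deposited table; chromosome 8, 67782984 to 67838633). SNHG16, host of SNORD1A, SNORD1B and SNORD1C, had 159 in SNE and 67.0 in CPE and was the only tested member with a negative ratio. Its log2 ratio in the authors' deposited table was -1.24 (p = 0.022, q = 0.133), for a row on chromosome 17 from 74553848 to 74583038. Relative to the median of annotated loci SNHG16 stood at 0.090, so its sign depends on where the zero is set.

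SNHG3 and SNHG12 could not be read. Both lie on chromosome 1 in a region from 11869 to 33969134 whose 3543 rows all exceeded Cuffdiff's data limit, and their listed values of 0 are failed estimates and do not show absence. SNHG3 shares its row with RCC1, the nucleotide exchange factor of the GTPase Ran.

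The members spread more widely in CPE than in SNE. Over the 8 tested members FPKM ran from 159 to 2709.7 in SNE, a 17.1-fold range with a median of 327. In CPE it ran from 67.0 to 17172, a 256-fold range with a median of 2012. No test of this spread was made.

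**Figure D1:**
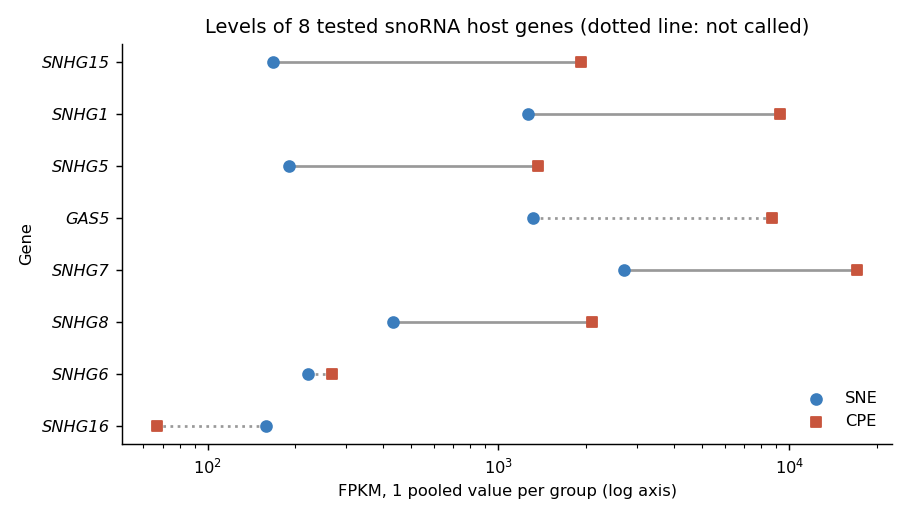
FPKM of the 8 tested host genes in SNE (circles) and CPE (squares), 1 pooled value per group on a log axis, ordered by ratio, with a dotted line where the authors' q was above 0.05. SNHG15, SNHG1, SNHG5, GAS5, SNHG7 and SNHG8 lie well to the right in CPE, SNHG6 moves from 221 to 267, and SNHG16 lies lower in CPE.

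The isoform table resolved each level into transcripts for 7 of the 8 tested members. SNHG6 and SNHG7 were found by their identifiers. In most of the table the identifiers do not pair isoforms with the gene table, so SNHG1, SNHG5, SNHG8, SNHG15 and SNHG16 were found as the 1 run of consecutive rows whose sums equal both FPKM values of the gene within 1e-05 of the value. The runs of these 7 genes and of 5 other noncoding hosts stood in the order of the gene table, and 32 of 32 neighbouring genes with a run of their own lay on the correct side. No such run was found for GAS5. The symbols of isoforms matched by sum are not known, and their structures were not used here.

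Nearly the whole chromatin level of the called genes sat in isoforms that Cuffdiff marked as low data and did not test. That share of the CPE level was 99.9% in SNHG7, 98.4% in SNHG1, 98.1% in SNHG8, 97.9% in SNHG15 and 93.7% in SNHG5. It was 84.7% in SNHG6 and 16.6% in SNHG16, the resolved members that were not called. Low-data isoforms also made up much of the SNE level. Their share of it was 97.8% in SNHG7, 92.6% in SNHG1, 60.8% in SNHG8 and 60.3% in SNHG15. In SNHG5 it was 13.2%, in SNHG6 47.9% and in SNHG16 12.7%. For comparison, the stretch of the isoform table with matching identifiers had 1462 annotated loci with FPKM of at least 1 in CPE. Their median share of the CPE level was 19.1%, and 366 of them had a share above 50%. SNHG6 and SNHG7 lie in that stretch, where 68 and 13 loci, themselves included, had a share as high.

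In SNHG5, SNHG6, SNHG7, SNHG8 and SNHG15 the tested isoforms together had the opposite direction to the gene, and in SNHG1 and SNHG16 the same direction. Summed over tested isoforms, SNHG7 stood at 58.4 in SNE and 18.6 in CPE, 3.15-fold higher in SNE, although the gene as a whole was 6.34-fold higher in CPE. Both of these sums were the lowest among the 7 resolved members, while the gene-level FPKM of SNHG7 was the highest. A single low-data isoform of SNHG7 went from 2627.6 to 16479 and a further one from 23.7 to 674. The isoform table names both of them SNHG7.

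SNHG8 showed the same split. Its tested isoforms summed to 170 in SNE and 40.5 in CPE, and 1 low-data isoform went from 261 to 2042. A tested isoform of SNHG8 was called in the opposite direction to the gene, at 105 in SNE and 27.7 in CPE (log2 ratio -1.92, q = 0.0376 in the authors' deposited table).

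In SNHG15 the tested isoforms summed to 66.6 in SNE and 39.4 in CPE, and 1 low-data isoform went from 101 to 1884. The tested isoforms of SNHG5 summed to 165 in SNE and 86.0 in CPE, while its 1 low-data isoform went from 25.2 to 1281, 50.8-fold higher in CPE. Both genes also had 1 tested isoform called toward CPE in the authors' deposited table, at 3.69 and 11.0 for SNHG15 (q = 0.000698) and at 7.67 and 23.5 for SNHG5 (q = 0.0112).

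SNHG1 was the only resolved member whose tested isoforms were together higher in CPE, at 93.5 in SNE and 153 in CPE. Of its tested isoforms 2 were called higher in CPE and 12 were not called. Its low-data isoforms included 1 that went from 874 to 2749, 1 from 113 to 2432 and 1 listed at 0 in SNE and at 3478 in CPE. The low-data level of SNHG1 was thus divided among several transcripts, unlike that of SNHG15 or SNHG5.

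SNHG6 had tested isoforms that summed to 115 in SNE and 40.8 in CPE, and low-data isoforms that summed to 106 and 226. Among its low-data isoforms, 1 went from 93.3 to 226 and 1 from 12.8 to 0. The FPKM of the gene is the sum of the tested and low-data parts, which moved in opposite directions. A tested SNHG6 isoform at 79.6 in SNE and 26.3 in CPE was called higher in SNE (log2 ratio -1.60, q = 0.0147 in the authors' deposited table). SNHG16 kept its direction in both parts, with tested isoforms at 139 in SNE and 55.9 in CPE and low-data isoforms at 20.1 and 11.1.

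Within SNHG16 the tested isoforms moved in opposite directions. One went from 102 in SNE to 5.56 in CPE, 18.4-fold higher in SNE (q = 0.000698 in the authors' deposited table). Another was called higher in CPE, at 5.25 and 17.1 (q = 0.0241 in the authors' deposited table).

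Over the 7 resolved members, 50 isoforms were tested, of which 5 were called toward CPE and 4 toward SNE. Over all tested isoforms of the series 1.49% were called toward CPE and 11.0% toward SNE. The summed tested isoforms were lower in CPE in 6 of the 7 members, with log2 ratios from -2.07 to 0.71 and a median of -1.31. Such a lower level is common: over 1681 loci of the matching stretch the summed tested isoforms had a median log2 ratio of -1.65. In the matching stretch, 39 of 229 loci with a positive gene ratio (17.0%) had a negative ratio over their tested isoforms, and of 26 loci called higher in CPE there, 2 did, SNHG7 and CBWD6. What sets the level of the low-data isoforms was not tested.

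**Figure D2:**
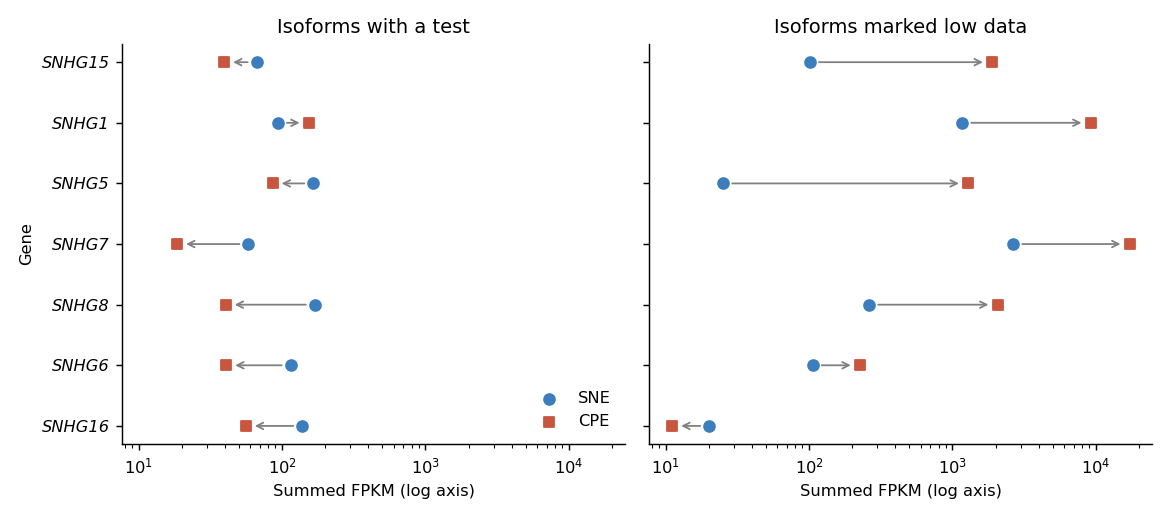
Summed FPKM (log axis) of isoforms with a test (left) and of isoforms marked low data (right) for the 7 resolved members, with arrows from SNE (circles) to CPE (squares). On the left every gene except SNHG1 moves to lower values in CPE, and on the right every gene except SNHG16 moves to higher values.

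Unnamed loci in the regions of the members leaned to chromatin at low levels. In all, 46 such rows share a region with a tested member, of which 44 were tested. Of these, 10 were called toward CPE and 0 toward SNE by the authors' Cuffdiff test, and at an unadjusted p under 0.05 the counts were 13 and 0. Among all 174660 tested unnamed loci 9.45% were called higher in CPE and 0.63% higher in SNE. Each of the 8 tested members had at least 1 called unnamed locus in its region, SNHG16 and SNHG6 included. The log2 ratio was positive at 43 of the 44, and the median of 2.87 over the 42 with values above 0 in both fractions lay below the 3.21 over 161013 unnamed loci of that kind.

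The levels of these unnamed loci were small beside those of the hosts. Beside SNHG5 the unnamed locus had 1.02 FPKM in SNE and 11.5 FPKM in CPE (log2 ratio 3.50, q = 0.000706 in the authors' deposited table). Beside SNHG1 it had 0.569 and 5.42 (log2 ratio 3.25, same q in the authors' deposited table), and beside SNHG15 0.709 and 3.88. The highest of the 3 called loci beside SNHG8 had 1.25 and 8.47, and the next had 0.294 and 3.44. Beside SNHG7 the called locus had 2.90 in SNE and 8.57 in CPE.

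The unnamed loci did not all share their host's direction. The one beside SNHG16 had 2.71 FPKM in SNE and 8.22 FPKM in CPE and was called higher in CPE (log2 ratio 1.60, q = 0.00361 in the authors' deposited table), while SNHG16 itself had a ratio of -1.24. The locus beside SNHG6 had 1.58 and 4.80 (log2 ratio 1.61, q = 0.000706 in the authors' deposited table). GAS5 had 17 unnamed loci with positive ratios, of which 1 was called, at 0.89 in SNE and 6.54 in CPE. The most abundant of the 17 stood at 43.5 in SNE and 361 in CPE and missed the threshold (q = 0.577 in the authors' deposited table); it is named here after its values were seen.

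**Figure D3:**
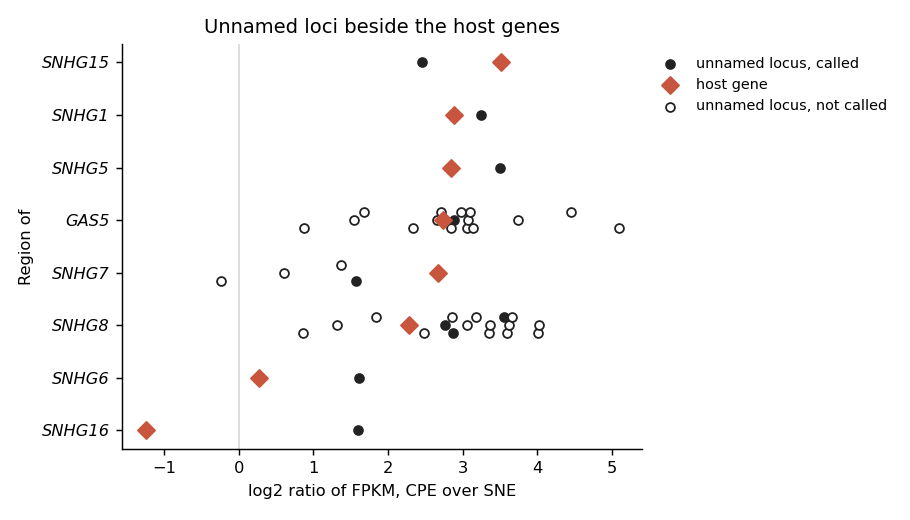
Log2 ratio of CPE over SNE of the tested unnamed loci with values above 0 in both fractions (circles, filled where called) and of the host gene (diamond) in each member's region. All but 1 circle, beside SNHG7, lie above 0, including those beside SNHG16 and SNHG6.

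Annotated neighbours in the same regions went the other way or were not called. FAM69B, beside SNHG7, had 19.5 in SNE and 3.38 in CPE and was called higher in SNE (log2 ratio -2.53, q = 0.00134 in the authors' deposited table). PRSS12, beside SNHG8, had 19.7 and 8.45 (q = 0.379 in the authors' deposited table).

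Other noncoding snoRNA hosts were called in both directions. Of 7 measured, 1 was called toward CPE and 2 toward SNE, against 1.83% and 39.3% of all tested annotated loci. Their median log2 ratio was -1.19, with a range from -1.91 to 2.31. SNHG11, host of SNORA60, had 13.6 FPKM in SNE and 67.6 FPKM in CPE (log2 ratio 2.31, q = 0.000706 in the authors' deposited table). DANCR, host of SNORA26, had 90.3 and 23.9 (log2 ratio -1.91, same q in the authors' deposited table). ZFAS1, host of the SNORD12 family, had 88.4 and 38.8 (log2 ratio -1.19, q = 0.00134 in the authors' deposited table), and SNHG17 had 50.8 and 75.7 and was not called. The difference between these hosts and the members was not tested.

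Where the snoRNA of such a host had a row of its own, its level differed from that of the host. Beside ZFAS1, which was called higher in SNE, SNORD12 had 244 FPKM in SNE and 1949 FPKM in CPE, SNORD12B 242 and 862 and SNORD12C 189 and 995. None of these 3 was called. SNORA26, beside DANCR, was listed at 109 and 1073 and SNORA13, beside EPB41L4A-AS1, at 68.0 and 357, both marked low data. In the SNHG17 region SNORA71A was listed at 676 and 26135, also as low data. Among the members this could be seen only for SNORD78 in the GAS5 region, at 594 in SNE and 917 in CPE and marked low data. SNORD1B, in the SNHG16 region, was also marked low data and was listed at 0 in both fractions.

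The isoforms of 5 of these other hosts were also resolved, by matching sums and so without symbols. The tested isoforms of SNHG11 summed to 10.03 in SNE and 3.16 in CPE, while 1 low-data isoform went from 2.84 to 62.9. In the 4 resolved hosts with a snoRNA row in their region, low-data isoforms made up 94.4% of the CPE level in SNHG11, 75.1% in EPB41L4A-AS1, 69.0% in SNHG10 and 0% in ZFAS1. In SNHG9, with no such row, they made up 33.6% of the CPE level. These low-data isoforms were higher in CPE in SNHG11, at 3.48 in SNE and 63.8 in CPE, and in SNHG9, at 3.66 and 8.15. They were lower in CPE in SNHG10, at 64.1 in SNE and 24.5 in CPE, and in EPB41L4A-AS1, at 51.2 and 28.4. Of the SNE level they made up 75.5% in SNHG10, 70.8% in EPB41L4A-AS1, 25.6% in SNHG11 and 4.51% in SNHG9.

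Protein-coding hosts offered a comparison by how their rows are drawn. Over all tested annotated loci 1.83% were called toward CPE and 39.3% toward SNE. Where the row names a snoRNA as well as the host, 10 of 29 were called toward CPE and 2 toward SNE, with a median log2 ratio of 0.82. Where the row names no snoRNA, 0 of 15 were called toward CPE by the authors' Cuffdiff test (1 at an unadjusted p under 0.05) and 9 toward SNE, with a median of -1.19. The 0 of 15 toward CPE lies near the 1.83% of all tested annotated loci. The split of rows was chosen after their values were seen, and the difference was not tested. RPL23, a large-subunit ribosomal protein gene without a snoRNA in its row, had 2189 FPKM in SNE and 523 FPKM in CPE, and RPS24, of the small subunit, 1239 and 248. RPS12 had the lowest ratio of that kind at -2.52 (q = 0.000706 in the authors' deposited table). Outside the ribosome, the nucleolin gene NCL had 372 and 154 and the mitochondrial chaperone gene HSPA9 898 and 233.

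RNAs that encode the proteins of snoRNPs were mostly higher in the soluble fraction, toward which 39.3% of all tested annotated loci were called. Of 15 measured genes for core and assembly proteins in rows of their own, 12 were called toward SNE and 0 toward CPE by the authors' Cuffdiff test (0 toward CPE at an unadjusted p under 0.05), with a median log2 ratio of -1.93. Of 4 more in rows that name several genes, 1, NUFIP1, was called toward SNE and 0 toward CPE (1 toward CPE at an unadjusted p under 0.05). The others, NOP56, NOP58 and DKC1, had log2 ratios of 3.07, 0.067 and -0.48, in rows that also name snoRNAs. FBL, the methyltransferase of C/D box particles, had 527 FPKM in SNE and 117 FPKM in CPE, and NHP2L1, which binds the kink-turn of C/D box snoRNAs, had 284 and 51.4. Of 9 measured nonsense-mediated decay factors, 3 were called toward SNE, a share near the 39.3% of all tested annotated loci, and 0 toward CPE by the same test (0 toward CPE at an unadjusted p under 0.05). UPF1, the helicase at the centre of that pathway, had 29.5 and 11.5 (q = 0.00466 in the authors' deposited table), and UPF3B, a component of the same pathway, had 6.61 and 3.25.

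**Figure D4:**
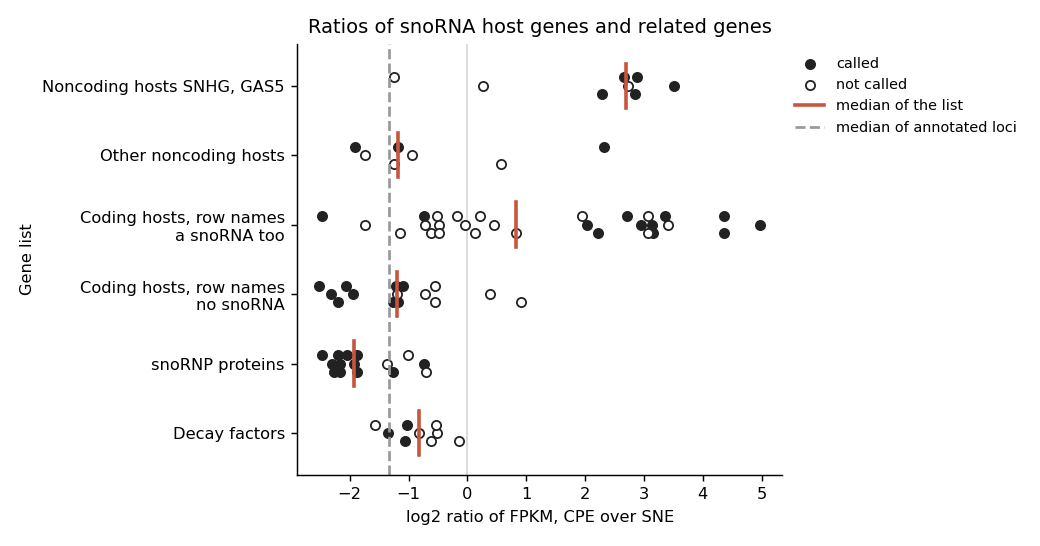
Log2 ratio of CPE over SNE for the members and for related gene lists, 1 point per measured gene, filled where called, with the median of each list (bar) and of all annotated loci (dashed line, -1.33). The members have a median of 2.70, coding hosts whose row names a snoRNA 0.82, and coding hosts whose row names none -1.19.

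The loci closest to the called members in both fractions were mostly small RNAs. Closeness was the distance between log2 FPKM values in SNE and CPE, over 16147 tested rows with 1 symbol and values above 0. SNHG1 lay closest to GAS5, at a distance of 0.11, and SNHG15 to SNHG5, at 0.52. SNHG7 lay closest to the spliceosomal RNA row RNU5A-1, with 2616 in SNE and 13935 in CPE, at 0.31. SNHG5 lay closest to RNU6-523P, a U6 pseudogene, at 0.35, and SNHG8 to SNORD59A, a C/D box snoRNA, at 0.65. With 2 values per locus, this is a likeness of levels only.

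Promoter sequence was looked up for the members because many snoRNA host genes have runs of C and T around the start. A link between promoter letters and the ratio of CPE over SNE was not tested. RefSeq promoter windows (GRCh38.p14) were found for 8 members. The letters TATAA occur on the gene's strand within 40 bases before the start in 4 of the 8, namely SNHG5, SNHG7, SNHG8 and SNHG12, and in 4.34% of 35116 promoters of the same table. With both strands searched the count of members stays at 4 and the background is 5.48%. SNHG1, called higher in CPE, has no such match, nor have SNHG3, SNHG16 and GAS5. The windows of the 3 tested genes with a match, from 45 bases before the start to 25 bases from the start on, are shown with TATAA in capitals. They lie at chr6:85678709-85678778 (minus strand), chr9:136728160-136728229 (minus strand) and chr4:118278717-118278786 (plus strand).
SNHG5: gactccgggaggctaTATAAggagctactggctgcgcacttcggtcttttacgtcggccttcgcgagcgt
SNHG7: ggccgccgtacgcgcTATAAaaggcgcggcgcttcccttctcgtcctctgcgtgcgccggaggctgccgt
SNHG8: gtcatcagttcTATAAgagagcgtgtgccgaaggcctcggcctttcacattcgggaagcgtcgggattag
Runs of C and T around the start, a feature of many snoRNA host and ribosomal protein genes, were longest in SNHG12 (12 bases) and SNHG7 (11 bases) within 30 bases of the start. A run of at least 11 bases occurs in 8.36% of promoters. The longest run was 8 bases in SNHG16, 7 in SNHG1, 6 in SNHG3, SNHG5 and SNHG8, and 5 in GAS5. Runs of at least 8 bases occur in 23.8% of promoters and of at least 6 in 49.6%, and the median over all promoters is 5. Most members thus did not stand out in the length of the longest run. Whether a run begins at the start itself was not measured. A match is a description of letters and shows no binding.

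Genes outside this family marked both fractions. NEAT1, MALAT1 and FTX, long noncoding RNAs of the nucleus, were each higher in CPE, and GAPDH, TUBA1B and LDHA mRNAs were each higher in SNE. Of 7 markers listed for HEK293, VIM, KRT8 and KRT18 were above an FPKM of 1 in both fractions, with VIM at 173 in SNE and 50.7 in CPE. PAX2, LHX1, NEFM and NEFL were below 1 in both. All 4 blood cell and 3 hepatocyte markers were below 1 as well, the highest being ALB at 0.373 in CPE.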

How the data were processed

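The members and gene lists were chosen with earlier results of these data known. Reads of stranded total RNA libraries were processed with TopHat2 and Cuffdiff on hg19, per the submitters' processing notes. Their versions, the annotation and the library scaling: not given in the sources used here. Difference tables for genes and for isoforms were deposited. Per the file headers, each row holds 1 FPKM value per group, a log2 ratio of CPE over SNE, and the authors' test with its p-value and q-value; the test statistic, a score per the file headers, was not used. Groups hold 3 samples each, but no value per sample was used here, so depth and spread between samples are unknown. The DRB and mock samples were not analysed here.

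A locus was called where its status was OK and its q no more than 0.05, by the sign of the deposited log2 ratio. Positions are those of a row's whole region, printed counted from 1. A list member was measured where its row had status OK and at least 1 FPKM in SNE or CPE; rows naming several genes were counted apart. Isoforms were assigned by identifier where sums matched the gene table, and otherwise by a single run of consecutive rows, of at most 80 above 0, with both sums matching within 1e-05. That search was tested on simulated data. Named genes were all members, genes sharing their rows, the 2 nearest loci to each called member, the 2 most abundant and the extreme called genes of each list, and the 2 most abundant called unnamed loci per region; not all of these are printed, and isoforms, neighbours, snoRNA rows and genes of multi-gene rows were named after their values were seen. snoRNA sequences came from GENCODE 29 and promoters from RefSeq, matched by symbol, and no coordinate was converted between builds. Python 3.11.15, pandas 2.3.3 and NumPy 2.4.6 were used.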

Additional observations from a re-analysis of the deposited data

How the results depend on the processing

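No paired analysis was possible because the tables hold 1 pooled value per group, and for the same reason no replicate could be left out. Of 85 alternative values, 66 stayed the same by the limits set (a log2 shift under 0.1, or a count within 1.5 times). Calls of members stayed at 5 higher in CPE, or 4 at q of at most 0.01, where SNHG1 was lost. With tested isoforms alone, an alternative added after seeing the data, the log2 ratio turned to -0.94 in SNHG5, -1.50 in SNHG6, -1.65 in SNHG7, -2.07 in SNHG8 and -0.76 in SNHG15, and was 0.71 in SNHG1 and -1.31 in SNHG16. By construction this leaves out the low-data isoforms. The negative value of SNHG5 rests on 1 uncalled isoform at 132 FPKM in SNE and 0.0068 FPKM in CPE. Centring on annotated loci turned SNHG16 to 0.090. With FPKM of at least 1 in both groups, 5 unnamed loci in place of 10 were called higher in CPE. Counting rows that name several genes raised the calls higher in CPE from 0 to 5 among ribosomal protein hosts and from 0 to 5 among other protein-coding hosts. Depth is unknown, so its limit on any value could not be given.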

Other observations

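The stretch of the isoform table with matching identifiers holds 5 of the listed protein-coding snoRNA hosts, and in 4 of them it names isoforms for snoRNAs and for the host separately; these genes are named after their values were seen. In RPL7A, a large-subunit ribosomal protein gene, the 4 isoforms named for snoRNAs summed to 1089 FPKM in SNE and 5123 FPKM in CPE, 97.1% of the CPE level of the row, while the tested isoforms named RPL7A summed to 284 and 140. In RPS20 the isoform named SNORD54 stood at 213 and 292, and the tested RPS20 isoforms at 279 and 43.8. In RPL10 the isoform named SNORA70 was listed at 0 in SNE and at 612 in CPE, and the tested RPL10 isoforms at 202 and 64.7. In DKC1, the pseudouridine synthase gene of H/ACA particles, the 2 isoforms named for snoRNAs summed to 0 in SNE and 15.5 in CPE, 29.4% of the CPE level of the row, and the tested DKC1 isoforms to 42.1 and 18.3. RPL12, whose row names no snoRNA, stood at 239 and 51.7, all of it in tested isoforms. None of the snoRNA isoforms in these 4 hosts was tested. In the whole stretch, 17 isoforms named for snoRNAs had an FPKM of at least 1 in either group, of which 8 were marked low data and 9 were tested.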
